A study of Mus musculus with 18 samples.

Results

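Orphan nuclear receptors were followed through the differentiation of mouse embryonic stem (ES) cells into motor neurons. The 8 receptor genes were Esrrb, Nr5a2, Nr0b1, Nr6a1, Nr2c1, Nr2f1, Nr2f2 and Nr2f6, out of 18193 genes that have a probe set with a single gene symbol. They were taken by name, and every probe set whose single symbol is one of these names was used, which gave 27 probe sets out of 45037. HBG3 is a mouse ES cell line with a GFP reporter of the motor neuron gene Mnx1 (Hb9). It was allowed to aggregate into embryoid bodies from day 0, and retinoic acid (RA) with a hedgehog agonist was given on day 2. The 18 arrays comprise 3 of undifferentiated cells (day 0), 4 of untreated embryoid bodies (day 2), 2 of such bodies after 8 h of RA, 3 of the neural precursor stage (day 3), 3 of the progenitor stage of motor neurons (day 4) and 3 of the postmitotic stage (day 7). Every group is of this 1 line, and the labels name no genetic difference between groups. Whether the hedgehog agonist was also present during the 8 h of RA is not stated, and no array of embryoid bodies kept for 8 h in fresh medium without RA was analysed here. Signals are log2 values, and a log2 signal of 4 was taken as background.

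Orphan nuclear receptors share the fold of the steroid and retinoid receptors but were named before any ligand was known for them. Most bind DNA at a half-site or at repeats of it, the same elements that RA receptors use, so they can share or compete for sites. In ES cells Esrrb, Nr5a2 and Nr0b1 belong to the network that maintains pluripotency, Nr6a1 represses pluripotency genes as cells differentiate, and the COUP-TF receptors Nr2f1 and Nr2f2 are well known as RA-responsive regulators of the nervous system.

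Promoter windows are shown for the receptors with a half-site match and for Nr2f1 and Nr2f2. Any match to the receptor half-site AGGTCA or to the TATA box TATAAA on either strand is in capitals. The member windows not shown, those of Esrrb among them, hold neither motif. Each window holds 250 bases before and 50 bases after a RefSeq start site on GRCm38.p6 and is written 5′ to 3′ on the strand of the gene. The first 3 are the member windows with a half-site, and the last pair belongs to the COUP-TF genes that rose together and holds neither motif.
Nr0b1 (chrX:86191525-86191824, + strand): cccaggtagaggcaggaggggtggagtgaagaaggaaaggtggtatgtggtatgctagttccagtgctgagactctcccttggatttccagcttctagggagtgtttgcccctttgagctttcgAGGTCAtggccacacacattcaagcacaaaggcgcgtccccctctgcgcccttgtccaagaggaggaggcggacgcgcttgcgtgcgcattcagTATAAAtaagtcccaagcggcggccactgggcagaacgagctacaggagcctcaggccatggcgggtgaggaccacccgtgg
Nr5a2 (chr1:136960399-136960698, - strand): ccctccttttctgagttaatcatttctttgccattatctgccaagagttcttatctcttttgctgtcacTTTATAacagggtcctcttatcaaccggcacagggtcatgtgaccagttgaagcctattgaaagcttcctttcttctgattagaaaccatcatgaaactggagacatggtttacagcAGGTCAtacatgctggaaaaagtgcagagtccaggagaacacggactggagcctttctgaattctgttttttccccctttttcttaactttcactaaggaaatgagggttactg
Nr6a1 (chr2:38784466-38784765, - strand): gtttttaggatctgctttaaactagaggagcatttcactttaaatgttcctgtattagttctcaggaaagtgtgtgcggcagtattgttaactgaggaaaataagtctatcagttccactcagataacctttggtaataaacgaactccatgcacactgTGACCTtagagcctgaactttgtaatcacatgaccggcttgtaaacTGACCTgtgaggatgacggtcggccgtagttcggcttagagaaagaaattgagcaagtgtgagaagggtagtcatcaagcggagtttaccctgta
Nr2f1 (chr13:78198824-78199123, - strand): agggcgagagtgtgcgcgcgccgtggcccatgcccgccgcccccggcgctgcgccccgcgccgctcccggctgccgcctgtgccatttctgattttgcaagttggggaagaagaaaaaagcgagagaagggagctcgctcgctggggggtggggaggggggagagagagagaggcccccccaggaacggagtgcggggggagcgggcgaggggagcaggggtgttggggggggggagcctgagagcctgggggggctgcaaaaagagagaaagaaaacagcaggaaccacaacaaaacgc
Nr2f2 (chr7:70366697-70366996, - strand): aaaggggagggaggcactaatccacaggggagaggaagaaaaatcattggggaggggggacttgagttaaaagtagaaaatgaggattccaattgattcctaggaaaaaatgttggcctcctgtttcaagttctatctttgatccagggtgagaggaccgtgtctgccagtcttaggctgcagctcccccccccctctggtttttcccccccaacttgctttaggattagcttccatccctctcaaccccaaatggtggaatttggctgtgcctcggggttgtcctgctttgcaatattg
The 8 genes had 12 windows, of which 3 held the half-site, against 16.3% of all 32851 windows of the same length. In the Nr0b1 window the half-site began at -126, counted from the start site, and the TATA box at -32. The Nr5a2 half-site began at -64, and a TATA box match on the opposite strand lay at -181. Both Nr6a1 matches were on the opposite strand, at -91 and -45. None of the 12 windows held the extended half-site TCAAGGTCA, a direct repeat of the half-site with 0 to 5 bases between, or the octamer ATGCAAAT, which were in 0.423%, at most 0.0396% and 1.74% of all windows. The half-site lies within the extended half-site and the repeats, so these searches overlap. The GC content of the member windows ran from 42% to 82.7%, and the median of all windows was 52.7%. Such matches are letters in a window, and which start site was used in these cells was not measured.

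The labels of the stages were checked against marker genes. The ES cell markers Pou5f1, Nanog, Zfp42 and Klf4 were above background on every array of day 0, day 2 and 8 h of RA. Pou5f1 and Zfp42 were under it on all arrays of days 4 and 7, whereas Klf4 was above it at every stage. Of the motor neuron progenitor markers, Nkx6-1 was above background on all arrays of days 3, 4 and 7 and under it after 8 h of RA. Olig2 and Nkx6-2 were above it at every stage, and Olig2 had a mean of 7.16 at day 0 and 11.1 at day 4. At day 7 Mnx1, Isl1, Lhx3 and Slc18a3 were above background on all 3 arrays, whereas Chat, the enzyme that makes acetylcholine, was under it on all 3. The interneuron marker Gata3 and the glial marker Aqp4 were above background on every array of day 7 alone. The interneuron marker Lhx1 was above it from day 3 on, whereas En1 and Evx1, also interneuron markers, were under it at every stage. The glial marker Aldh1l1 was above it at some earlier stages as well, and Gfap was under it at every stage. RNA was taken from ES cells or embryoid bodies, and the sources used here do not say whether day 7 cells were sorted first. Fewer cells of a type and less RNA per cell cannot be told apart in such RNA. On each array 55.2% to 56.9% of probe sets were under background.

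Seen together, the 8 receptors fell into 3 courses. Esrrb and Nr5a2 were highest in ES cells and Nr0b1 was also highest there but returned at 8 h of RA and at day 4. On their brightest probe sets Nr6a1, Nr2c1 and Nr2f6 were above background throughout and had their lowest means at day 7. That mean did not differ from day 0 for Nr2c1 (limma, adjusted p = 0.494) or from 8 h of RA for Nr2f6 (limma, adjusted p = 0.0929). A second probe set of Nr2c1 was lowest at day 0, with a mean of 5.50 against 6.39 at day 7. Nr2f1 and Nr2f2 were high from day 3 on. With every value under background raised to it, stage means of the brightest probe set spanned 7.66 on the log2 scale for Nr2f1, 7.63 for Nr2f2, 7.41 for Esrrb and 6.94 for Nr0b1, which were wider spans than those of 99.7%, 99.7%, 99.7% and 99.4% of all genes. The span was 1.61 for Nr2c1 and 1.95 for Nr2f6, wider than 69.9% and 76.1% of genes. Of the 40 pairs of stages that neighbour each other in the order of a receptor's means, 6 had an adjusted p under 0.01 by limma and differed at least 2-fold. Days 3 and 2 of Nr2f6 passed the p threshold alone (limma, adjusted p = 0.00498).

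**Figure D1:**
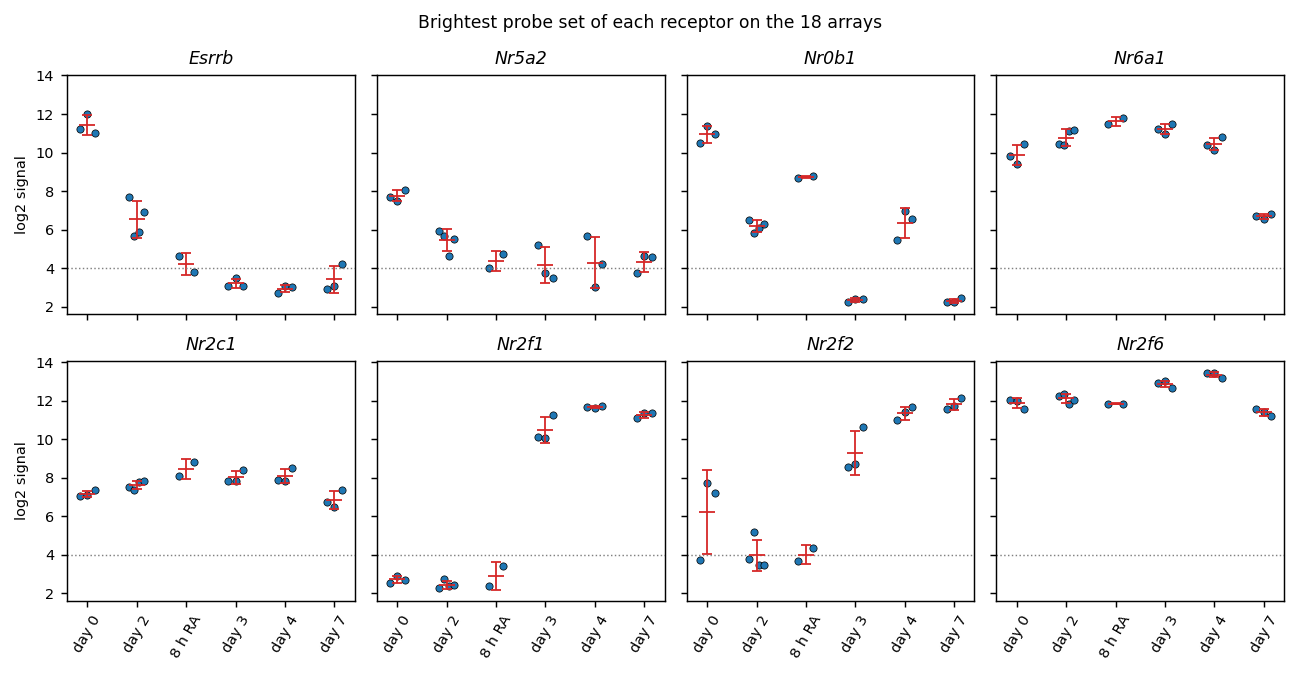
Log2 signal of the brightest probe set of each receptor (vertical axis) at the 6 stages (horizontal axis). Points are arrays, red bars are the mean and SD over arrays, and the dotted line is the background level of 4. The day 3 arrays of Nr2f1 sit between 10.05 and 11.23, far above the 9 earlier arrays, and Nr0b1 alternates between high and low stages.

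A receptor was called when at least 1 of its probe sets changed at least 2-fold with an adjusted p under 0.01, and the value of a gene is that of its brightest probe set. From day 0 to day 2, Esrrb, Nr0b1 and Nr5a2 fell (3 of 8), where 4.47% of all genes were called. From day 2 to 8 h of RA, Nr0b1 rose (1 of 8), where 0.434% of all genes were called. From day 2 to day 3, Nr2f1 and Nr2f2 rose and Esrrb, Nr0b1 and Nr5a2 fell (5 of 8; all genes, 7.71%). Against 8 h of RA, Nr2f1, Nr2f2 and Nr2f6 were higher at day 3 and Nr0b1 was lower (4 of 8; all genes, 4.49%). From day 3 to day 4, Nr0b1 rose (1 of 8), where 1.42% of all genes were called. From day 4 to day 7, Nr0b1, Nr2c1, Nr2f6 and Nr6a1 fell and Nr2f2 rose on a dimmer probe set (5 of 8; all genes, 19.0%). Between day 0 and day 7, Nr2f1 and Nr2f2 rose and Esrrb, Nr0b1, Nr5a2 and Nr6a1 fell (6 of 8; all genes, 33.1%). The comparisons share arrays with their neighbours, so they are not independent of each other. The median log2 change of the 8 receptors ran from -1.84 between day 0 and day 7 to 0.42 between day 2 and day 3, and the median of all genes was 0 in each comparison.

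**Figure D2:**
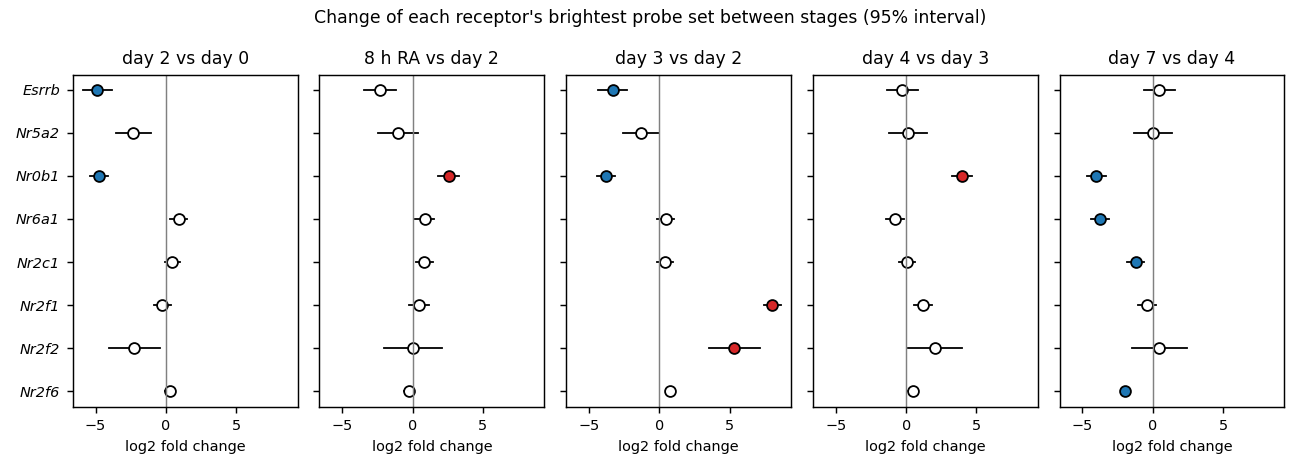
Log2 fold change of the brightest probe set of each receptor (horizontal axis) in 5 comparisons, with limma's 95% interval. Red points were called higher, blue points lower and open points were not called; Nr5a2 was called on other probe sets from day 0 to day 2 and from day 2 to day 3. Points are log2 differences as measured, also where a group lay under background, as for Nr2f1 at day 2 and Nr0b1 at days 3 and 7, where the size is not resolved. Nr2f2 stands at 5.33 in the panel of day 3 against day 2, and Nr0b1 changes side from panel to panel.

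Esrrb, an activator of ES cell self-renewal, lost most of its signal before RA was added. At day 0 its log2 signals were 11.23, 12.00 and 11.00. At day 2 they were 7.71, 5.66, 5.87 and 6.89. The groups did not overlap, and the fall of 4.88 ± 0.47 (SE) on the log2 scale, 29.4-fold, had an adjusted p of 4.29e-05 by limma. After 8 h of RA the signals were 4.61 and 3.79, both below every day 2 array, but the log2 difference of -2.33 ± 0.53 did not pass the test (limma, adjusted p = 0.15). At day 3 they were 3.07, 3.47 and 3.07, all under background, at least 5.78-fold below day 2 (limma, adjusted p = 0.000542). The signals stayed between 2.73 and 3.07 at day 4, and at day 7 they were 2.93, 3.08 and 4.21. Its 2 dimmer probe sets were under background on 16 and 18 of the 18 arrays.

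Nr5a2, a receptor that activates Pou5f1 in the early embryo, was also highest in ES cells, with the size of its fall depending on the probe set. On its brightest probe set the signals were 7.71, 7.49 and 8.07 at day 0 and 5.94, 5.68, 4.63 and 5.52 at day 2. These groups did not overlap, but the log2 difference of -2.31 ± 0.58 missed the threshold (limma, adjusted p = 0.0369). On a second probe set, 1456521_at, the stage means were 8.53 ± 0.56 (SD, n = 3) at day 0 and 5.35 ± 0.66 (SD, n = 4) at day 2, a 9.05-fold fall (limma, adjusted p = 0.000436). That probe set was under background on all arrays of day 3, at least 2.56-fold below day 2 (limma, adjusted p = 0.000365). The brightest probe set kept signals between 2.99 and 5.66 on the arrays of days 3, 4 and 7. Between day 0 and day 7 both fell, the brightest by 3.44 on the log2 scale (limma, adjusted p = 0.00072) and 1456521_at by at least 23.1-fold (limma, adjusted p = 1.81e-07).

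**Figure D3:**
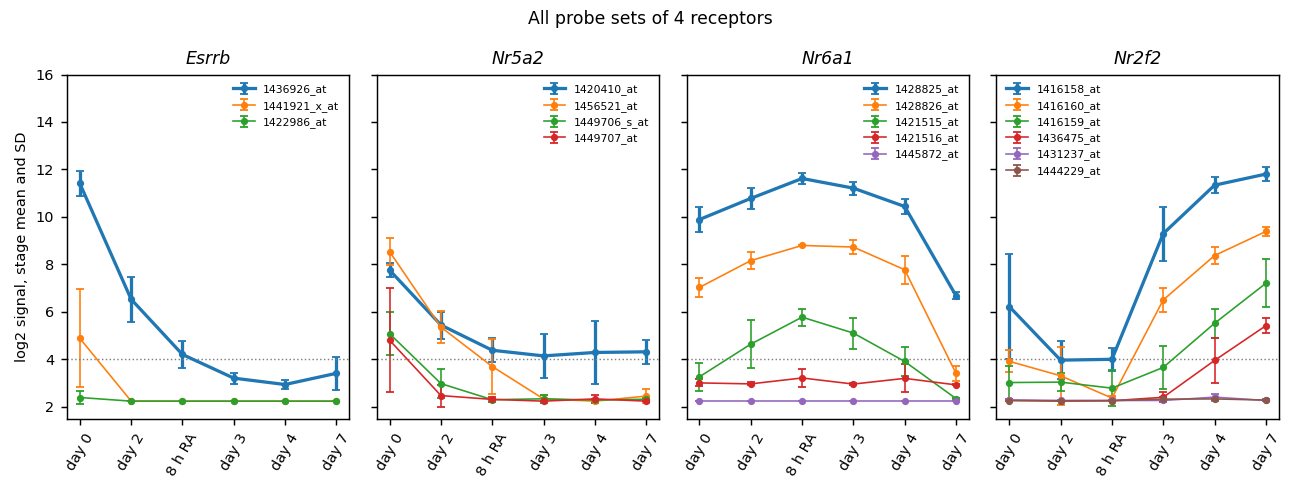
Stage means and SD of the log2 signal (vertical axis) for every probe set of Esrrb, Nr5a2, Nr6a1 and Nr2f2 at the 6 stages (horizontal axis), with the brightest probe set as the thick line and background as the dotted line. The 2 upper probe sets of Nr5a2 part after day 2, while those of Nr6a1 run alongside each other. Those of Nr2f2 stand at 6.22 and 3.91 at day 0 and at 3.96 and 3.30 at day 2, and both rise from day 3 to day 7.

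Esrrb and Nr5a2 were compared with each other by the difference of their log2 changes. On the brightest probe sets Esrrb fell by more than Nr5a2 between day 0 and day 7 (limma, adjusted p = 0.000516). Since Esrrb was under background on 2 of the 3 day 7 arrays, the size is given with values raised to background, where the difference was -3.99 on the log2 scale and passed as well. It turned on the probe set, since 1456521_at of Nr5a2 fell further than the brightest one, and with probe sets averaged per gene the difference was 0.11 and did not pass. It did not pass either with the replicate number as a block. In the other 6 comparisons the difference did not pass the test, and from day 0 to day 2, where both genes were above background, it was -2.57 with a 95% interval of -4.17 to -0.96.

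Nr0b1, also known as Dax1, lacks the usual DNA-binding domain and acts mainly by repressing other receptors and Pou5f1. It is on the X chromosome and has 1 probe set. At day 0 its log2 signals were 10.49, 11.35 and 10.98. At day 2 they were 6.51, 5.80, 6.07 and 6.29, a 27.4-fold fall (limma, adjusted p = 8.8e-07). No array of either group overlapped with the other.

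After 8 h of RA, Nr0b1 read 8.69 and 8.78, above all 4 day 2 arrays and below all day 0 arrays. The rise was 2.57 ± 0.34 on the log2 scale, 5.92-fold (limma, adjusted p = 0.00307). It rests on 2 RA arrays: leaving out either of them, or day 2 replicate 2, took the call away, and with 1 array left out the adjusted p ran from 0.00566 to 0.0268 while the log2 change stayed between 2.44 and 2.68. At day 3 the signals were 2.24, 2.41 and 2.40, close to the lowest value in the data, 2.24. This was at least 26.6-fold below 8 h of RA (limma, adjusted p = 3.28e-07) and at least 4.49-fold below day 2 (limma, adjusted p = 3.33e-06).

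At day 4 Nr0b1 was back above background, with signals of 5.45, 6.95 and 6.55, at least 4.98-fold above day 3 (limma, adjusted p = 2.19e-05). At day 7 it was at 2.24, 2.24 and 2.43 again, at least 4.98-fold below day 4 (limma, adjusted p = 1.05e-06). In the order of its stage means, day 0 was above 8 h of RA (limma, adjusted p = 0.00307), 8 h of RA above day 4 (limma, adjusted p = 0.000711) and day 2 above day 3. The day 4 and day 2 means of 6.32 and 6.17 did not differ beyond their spread, and neither did those of days 3 and 7.

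Counted over all genes, 9 of 18193 fell from day 0 to day 2 and rose after 8 h of RA, and 10 fell from day 2 to day 3 and rose from day 3 to day 4. Nr0b1 was in both groups and was the 1 gene called at all 5 of these turns, ending with the fall to day 7, a pattern chosen after its values were seen. The 10 genes that returned at day 4 also held the neuronal genes Tubb3 and Stmn2, which were above background in ES cells too. Stmn2 had a mean of 12.1 at day 0 and 9.22 at day 4, and Tubb3 had 7.55 and 9.53. The summed log2 signal of the neuronal markers Tubb3, Stmn2, Snap25 and Map2 lay between 30.6 and 33.9 at day 0 and between 32.4 and 34.5 at day 2. After 8 h of RA it lay between 32.2 and 33.1. The sum was lowest at day 3, between 26.9 and 27.1, and lay between 34.8 and 37.0 at day 4. It rose further to between 50.3 and 51.1 at day 7, where Nr0b1 fell. The part of these markers in the day 4 signal of Nr0b1 was not tested.

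The ES cell network partners give a measure for these 3 receptors. Of the 12 partners, 9 fell from day 0 to day 2, where 2.46% of all genes were called lower. Klf4 was among them on a dimmer probe set only, and its brightest one missed the threshold (limma, adjusted p = 0.0786). Tbx3 fell 66.4-fold, with 2 of 4 day 2 arrays under background, and Prdm14 and Tcl1, which were under it on all 4, fell at least 20.3-fold and 16.4-fold (limma, adjusted p = 3.76e-05, 5.44e-08 and 7.31e-07). None of the 12 was called by limma after 8 h of RA, when Nr0b1 rose (1 had an unadjusted p under 0.05). Of all genes, 0.434% were called there. The median log2 change of the 12 was -0.57, or -0.49 with values raised to background. From day 2 to day 3, 5 of the 12 fell, with a median of -1.93 over the list, or -1.55 with values raised to background. The central pluripotency factors Pou5f1 and Nanog fell, with log2 changes of -7.04 and -5.06 (limma, adjusted p = 1.35e-06 and 3.49e-05), and both had not been called from day 0 to day 2. At day 4, when Nr0b1 returned, Zfp42 was the 1 partner called (limma, adjusted p = 0.00387), and since all day 4 arrays were under background its fall is resolved only as at least 1.44-fold. Of all genes, 0.792% were called lower there. Between day 0 and day 7, 11 of the 12 fell, where 16.4% of all genes were called lower. Klf4 was again called on a dimmer probe set only (limma, adjusted p = 0.0157 on its brightest one). Sox2, which neural cells also use, was not called.

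**Figure D4:**
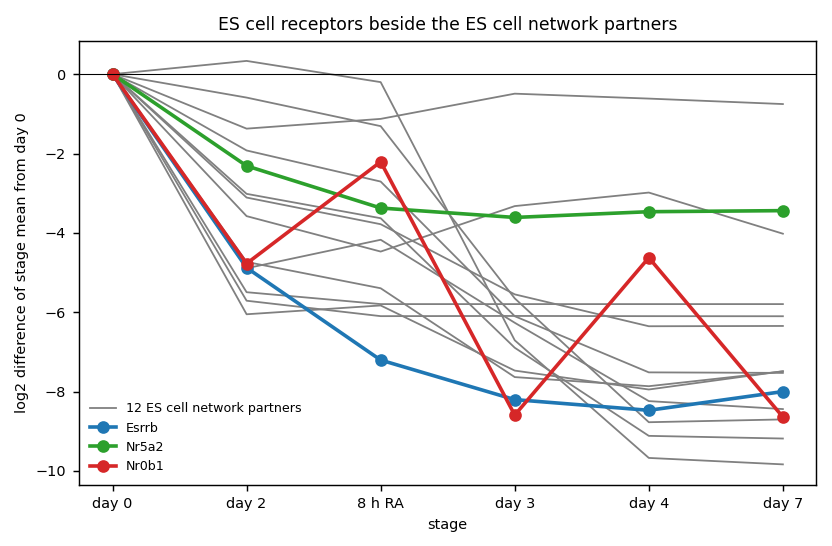
Log2 difference of each stage mean from the day 0 mean (vertical axis) at the 6 stages for Esrrb, Nr5a2 and Nr0b1 and, in grey, the 12 ES cell network partners. Values under background are included. Nr0b1 moves up at 8 h of RA by 2.57 on the log2 scale and again at day 4, where the rise is resolved only as at least 4.98-fold, and the 3 coloured lines start from the same point because each is set to 0 at day 0.

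Nr6a1, also known as GCNF, represses Pou5f1 and Nanog during differentiation. It was high from ES cells to day 4 and low at day 7. Its log2 signals were 9.83, 9.40 and 10.44 at day 0, and 10.43, 10.39, 11.13 and 11.17 at day 2. They were highest after 8 h of RA, at 11.46 and 11.78, which lay above every day 2 array, with a log2 difference of 0.84 ± 0.30 that did not pass the test (limma, adjusted p = 0.80).

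At day 3 Nr6a1 read 11.20, 10.95 and 11.49, and at day 4 10.37, 10.15 and 10.80. From day 3 to day 4 the difference of -0.77 did not pass the test (limma, adjusted p = 0.418). At day 7 the signals were 6.68, 6.54 and 6.82, a 13.5-fold fall from day 4 (limma, adjusted p = 7.29e-07) with no overlap. The second probe set, 1428826_at, fell at least 13.7-fold (limma, adjusted p = 3.33e-07) and was under background on all 3 day 7 arrays. Day 7 was also 9.26-fold below day 0 on the brightest probe set (limma, adjusted p = 1.48e-06). The stages from day 0 to 8 h of RA and day 4 formed a series in which no neighbouring means passed the test for a difference. The ends of this series were further apart, with means of 9.89 at day 0 and 11.62 after 8 h of RA and no overlap of their arrays.

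Of 3 genes that Nr6a1 is known to repress, Pou5f1, Nanog and the Nodal co-receptor Tdgf1, none was called by limma from day 0 to day 2 or after 8 h of RA (0 with an unadjusted p under 0.05 in each), and all 3 were lower at day 3 than at day 2. Tdgf1 fell at least 351-fold (limma, adjusted p = 1.88e-09). Nr6a1 itself was not called in that comparison, where its log2 change was 0.43 with a 95% interval of -0.15 to 1.02.

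Nr2c1, also known as TR2, pairs with the closely related receptor Nr2c2 and varied least. Its signals were 7.03, 7.10 and 7.34 at day 0 and 8.08 and 8.81 after 8 h of RA, its highest stage. The arrays of days 3 and 4 lay between 7.80 and 8.48. At day 7 they were 6.72, 6.46 and 7.34, 2.34-fold below day 4 (limma, adjusted p = 0.00505). This call was lost without day 4 replicate 1 or 3, or without day 7 replicate 3 or 4, with adjusted p between 0.00174 and 0.0264 when 1 array was left out. The second probe set, 1439490_at, followed the brightest with a correlation of 0.45 over the 18 arrays and had its highest mean at day 3.

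Nr2f6, also known as EAR2, is the third COUP-TF receptor and was high at every stage. Its signals were 12.02, 11.99 and 11.58 at day 0, and 11.84 and 11.82 after 8 h of RA. At day 3 they were 12.91, 13.02 and 12.68, above all earlier arrays. The change from 8 h of RA to day 3 was 2.05-fold, just past the fold threshold (limma, adjusted p = 0.00296), and the call was lost without either RA array or without day 3 replicate 1 or 2, with adjusted p up to 0.0311. With each array centred on its median, or with probe sets of the a type left out, it was lost as well.

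From day 2 to day 3 Nr2f6 changed by 0.75 ± 0.14 on the log2 scale, 1.68-fold, which passed the p threshold (limma, adjusted p = 0.00498) but not the fold threshold. At day 4 the signals were 13.42, 13.43 and 13.19, its highest, and at day 7 they were 11.58, 11.41 and 11.21. The fall to day 7 was 3.85-fold on the brightest probe set (limma, adjusted p = 9.56e-07) and 8.36-fold on 1460648_at (limma, adjusted p = 9e-05). Nr2f6 thus went down over the interval in which Nr2f1 and Nr2f2 stayed high.

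Nr2f1, or COUP-TFI, a regulator of neuronal identity and axon growth, went from below background to a high signal at day 3. It was between 2.25 and 3.40 on all 9 arrays of day 0, day 2 and 8 h of RA, and no change was detectable among these. At day 3 its signals were 10.10, 10.05 and 11.23. The rise was at least 88.1-fold over day 2 (limma, adjusted p = 1.88e-09) and at least 88.1-fold over 8 h of RA (limma, adjusted p = 3.59e-08).

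At day 4 Nr2f1 read 11.64, 11.61 and 11.73, above all day 3 arrays, with a log2 difference of 1.20 that did not pass the test (limma, adjusted p = 0.085) and did pass without day 3 replicate 3 (limma, adjusted p = 0.0047). At day 7 it read 11.07, 11.34 and 11.37, with a difference from day 4 of -0.40 and a 95% interval of -1.05 to 0.25.

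Nr2f2, or COUP-TFII, is known in mesenchyme and vessels as well as in neurons, and its ES cell arrays did not match each other. At day 0 its signals were 3.70, 7.74 and 7.23, so that 1 array was under background and the other two were well above it. The other probe sets did not show this split: 1416160_at read 4.34, 3.97 and 3.43 and 1416159_at read 3.50, 3.32 and 2.24, each highest on replicate 1 and at or near background. On the brightest probe set the 2 higher arrays had more signal of 7 fibroblast and mesenchyme markers, whose summed log2 signal was 27.7 on replicate 1, 41.0 on replicate 2 and 40.4 on replicate 3. It lay between 19.0 and 26.9 on the 15 arrays of the later stages. On replicates 1, 2 and 3 of day 0 the markers at or above background numbered 3, 4 and 5 of the 7. Lum and Postn were under it on every day 0 array. ES cells were amplified on feeder cells and moved to gelatin for the experiments. The part of these cells in the day 0 signal of Nr2f2 was not tested.

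At day 2 the Nr2f2 signals were 3.79, 5.15, 3.46 and 3.46, and the log2 difference from day 0 of -2.26 ± 0.83 did not pass the test (limma, adjusted p = 0.175). Without day 0 replicate 1 it was -3.52 and passed (limma, adjusted p = 0.00405). After 8 h of RA the signals were 3.65 and 4.35, within the range of day 2. At day 3 they were 8.57, 8.70 and 10.61, above every array of the earlier stages, and the rise from day 2 was 5.33 ± 0.83 on the log2 scale (limma, adjusted p = 0.00115). The highest of these arrays, replicate 3, also had the highest summed fibroblast and mesenchyme signal of the later stages. The sum was 26.9 on it, against 25.0 and 24.7 on replicates 1 and 2. Col1a1 read 8.12 on replicate 3, against 5.87 and 5.21, and Col1a2 read 7.21, against 5.17 and 5.30. Not all of the 7 markers were higher there. Col3a1 read 2.25 on all 3 arrays, and 2 markers were at or above background on replicate 3, against 3 and 3. Without replicate 3 the rise of Nr2f2 was 4.67 and was still called (limma, adjusted p = 0.00779). At days 4 and 7, when Nr2f2 was higher still, the sum lay between 20.8 and 25.3, and the part of these markers in the rise was not tested. Since 3 of the 4 day 2 arrays were under background, the size of the rise of Nr2f2 from day 2 is not fully resolved. With values raised to background it was 5.01 on the log2 scale.

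From 8 h of RA to day 3 Nr2f2 rose by 5.30 on the log2 scale (limma, adjusted p = 0.00712). With any 1 array of these groups left out the brightest probe set missed the threshold, with adjusted p between 0.0149 and 0.0872. At day 4 the signals were 10.97, 11.39 and 11.66 and at day 7 11.58, 11.71 and 12.12, and neither step passed the test on the brightest probe set (limma, adjusted p = 0.618 and 0.98). A dimmer probe set, 1436475_at, rose 2.76-fold from day 4 to day 7 (limma, adjusted p = 0.00738). This call was lost with quantile normalization, with each array centred on its median, with probe sets averaged per gene, in the fit of the 2 stages alone, with the replicate number as a block, and without day 4 replicate 1, day 7 replicate 3 or day 7 replicate 5. Between day 0 and day 7 the rise was 5.58 on the log2 scale (limma, adjusted p = 0.000259), and 4 of its 6 probe sets were called, while the other two were under background on all 18 arrays.

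The 2 COUP-TF genes both rose at day 3, and the difference in size between them did not pass the test there. Nr2f1 was under background on all arrays before day 3 and Nr2f2 on most of those of day 2 and 8 h of RA, so how far their rises differ is not resolved. With values raised to background, the rise of Nr2f1 exceeded that of Nr2f2 by 1.46 on the log2 scale from day 2 to day 3 and by 1.78 between day 0 and day 7, and neither passed the test. With the values as deposited, day 7 against day 0 passed (limma, adjusted p = 0.00733), but it did not pass in the fit of the 2 stages alone, with the replicate block, or with any 1 array of these stages left out other than day 0 replicate 1. Over the 18 arrays Nr2f1 and Nr2f2 correlated at r = 0.93, a description in which arrays of 1 stage are not independent points.

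The COUP-TF partner Bcl11a, a zinc finger protein also called CTIP1, ran a different course. Bcl11a rose by 2.71 from day 0 to day 2, fell by 4.42 from day 2 to day 3 and rose by 4.88 from day 4 to day 7 on the log2 scale (limma, adjusted p = 0.00803, 0.000134 and 3.02e-05). At day 3 it was under background on 2 of the 3 arrays. Bcl11b, its close relative, was called in the same 3 comparisons in the same directions, from day 0 to day 2 on a dimmer probe set. The third partner, Zfpm2, rose at least 4.14-fold from day 4 to day 7 (limma, adjusted p = 0.0025). Both Bcl11 genes fell in the interval in which Nr2f1 and Nr2f2 rose.

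Of 17 other orphan receptors fixed as a list, 15 were measured. None was called by limma in the 5 comparisons up to day 4, where 0 to 4 had an unadjusted p under 0.05. In these comparisons 0.434% to 7.71% of all genes were called, so few calls would be looked for among 15 genes. From day 4 to day 7, 3 of the 15 rose and 1 fell, where 19.0% of all genes were called. One of the risers, Rora, was called on a dimmer probe set, and its brightest one changed by 0.64 (limma, adjusted p = 0.875). Nr4a3, an immediate-early receptor, rose by 5.55 and Esrrg, the relative of Esrrb used in neurons and oxidative tissue, by 4.13 on the log2 scale (limma, adjusted p = 2.29e-05 and 2.34e-05), and the clock receptor Nr1d2 fell by 1.82 (limma, adjusted p = 0.00298). Esrrg read 3.74 at day 0 and 10.8 at day 7 in the mean, where Esrrb went from 11.41 to 3.41, each on its own probe set. Nr2c2, the partner of Nr2c1, was not called in any comparison.

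**Figure D5:**
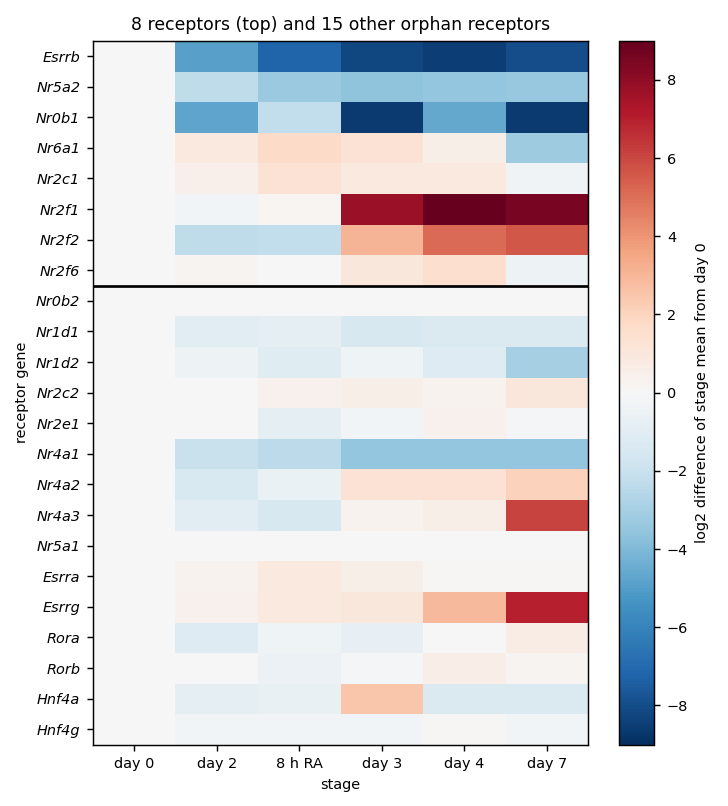
Log2 difference of each stage mean from the day 0 mean (colour) for the 8 receptors above the line and 15 other orphan receptors below it, by stage (horizontal axis). Values under background are included. Esrrg, Nr4a3 and Nr2f1 are deep red at day 7, with Esrrg and Nr2f1 under background on all day 0 arrays and Nr4a3 on 2 of 3, so the colour does not give the size of these rises.

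Genes whose brightest probe set followed a receptor most closely over the 18 arrays were named by Pearson correlation among 4191 genes that varied between stages. The closest to Esrrb was Sox15 (r = 0.98), to Nr5a2 Lrrc34 (r = 0.91), and to Nr0b1 Hormad1 (r = 0.89), a gene of meiotic chromosomes. Tubb6, a tubulin, was closest to Nr6a1 (r = 0.98), Gulp1 to Nr2c1 (r = 0.93) and Itgb3bp to Nr2f6 (r = 0.91). The homeobox gene Hoxd3 followed Nr2f1 most closely (r = 0.99) and Akr1c13 followed Nr2f2 (r = 0.96). Among the receptors themselves, Esrrb correlated with Nr5a2 at 0.88 and with Nr0b1 at 0.76, and Nr6a1 with Nr2c1 at 0.79. Arrays of 1 stage share their stage in all of these values, and no test was made.

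Same-numbered arrays deviated together from day 2 to day 3 and from day 3 to day 4. With the replicate number as a block in a fit of all 18 arrays, the same 5 receptors were called from day 2 to day 3, and 2 were called from day 3 to day 4, Nr0b1 and Nr2f6. Of all genes that fit called 7.80% and 1.39%. When the fit with the block held the 2 stages alone, which leaves 2 residual degrees of freedom, 0 receptors and 0 of 18193 genes were called by limma in either comparison. At an unadjusted p under 0.05 that fit gave 8 of 8 receptors and 4608 genes from day 2 to day 3, and 5 of 8 receptors and 3261 genes from day 3 to day 4. Without the block, the fit of the 2 stages alone called Nr0b1 and Nr2f1 from day 2 to day 3 and 0 receptors from day 3 to day 4. Of all genes it called 3.58% and 0.0934%.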

How the data were processed

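The authors amplified total RNA of HBG3 cells, hybridized it to Affymetrix mouse expression arrays and deposited log2 signals made with GCRMA across all arrays. No GCRMA version is given in the sources used here. The 18 columns were assigned to stages by the sample titles. The Methods call the arrays of a stage biological triplicates, while the labels give 2 to 4 arrays a stage and name no culture.

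Of 45101 probe sets, 64 controls were left out. Of the rest, 34945 carry 1 symbol, 932 several and 9160 none, and members were matched by single symbol. The means of 6 groups were fitted to all 18 arrays with limma 3.58.1 in R 4.3.3 (lmFit, eBayes, 12 residual and 0.515 prior degrees of freedom), with Benjamini-Hochberg adjustment over 45037 probe sets and thresholds of an adjusted p of 0.01 and 2-fold. For each gene the probe set brightest in the mean of the 18 arrays gave the value. A fold against a group wholly under a log2 signal of 4 is a lower bound with 4 in place of that group's mean. Precision is limited by how few arrays each group has. GCRMA compresses low signals towards its floor of 2.24.

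Named genes are the 8 members, called genes of the lists (up to 3 per list and comparison, by size of change) and the genes most like each member. Members and lists were chosen with earlier results of these data known. Same-numbered arrays were compared by the correlation of their deviations from the group mean. It was 0.48, 0.35 and 0.48 between days 2 and 3 and 0.64, 0.42 and 0.75 between days 3 and 4, which were taken as paired, and between -0.45 and 0.21 for the other comparisons with shared numbers. Alternatives were a fit of 2 groups only, the replicate block, other probe set rules, other scalings, other thresholds, array weights, parts of the day 2 arrays and each array left out. The procedure was tested on simulated data. Promoter windows come from RefSeq on GRCm38.p6. Figures were drawn with Python 3.11.15 and matplotlib 3.10.9.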

Additional observations from a re-analysis of the deposited data

Results flagged for a closer look

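On the second probe set of Nr6a1, 1428826_at, the day 2 array of replicate 4 stood apart. It read 8.70, while the other day 2 arrays lay between 7.93 and 8.01. The gap to the nearest array was 0.897 of the whole range of the 4 arrays. Of the member probe sets, 14 had a day 2 array at background or above and were examined this way, and chance gives about 1 such array in 20. On the brightest Nr6a1 probe set the same array read 11.17, next to replicate 3 at 11.13.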

How the results depend on the processing

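Over the values of single receptors, 1046 alternatives kept their side of the threshold, 50 lost a call, 8 gained one and 0 calls turned round. Direction was compared only where a call was made, and some uncalled changes took the other sign. For Nr2c1 from 8 h of RA to day 3, the log2 change ran from -0.80 to 1.23 over the alternatives. Of the losses, 11 came from the fit of 2 groups only, which has fewer arrays and residual degrees of freedom, 12 from that fit with the replicate block, 3 from the block in the fit of all arrays and 16 from leaving out 1 array. In the fit of 2 groups only, 0 receptors were called after 8 h of RA against day 2 (1 in the fit of all arrays), 1 from day 0 to day 2 (3), 2 from day 2 to day 3 (5), 1 from 8 h of RA to day 3 (4), 0 from day 3 to day 4 (1) and 2 from day 4 to day 7 (5). The share of all genes called was also lower in that fit, at 0.0440%, 0.363%, 3.58%, 0.528%, 0.0934% and 7.10% in the same order. Nr2f1 minus Nr2f2 then passed in 0 of 7 comparisons (1) and 2 of the 40 neighbouring stage pairs passed both thresholds (6).

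With the replicate number as a block, the fit of all arrays called 0 receptors after 8 h of RA and 2 from day 3 to day 4 (Nr0b1 and Nr2f6). Of all genes it called 0.269% and 1.39% in these comparisons. For the comparisons of day 7, a choice made after seeing the data, that fit gave 4 from day 4 to day 7 (all genes, 17.6%) and 7 between day 0 and day 7 (all genes, 32.1%). Over all 7 comparisons Nr2f1 minus Nr2f2 and Esrrb minus Nr5a2 passed in 0 comparisons each. The block with 2 groups only called 0 after 8 h of RA, 0 from day 0 to day 2, 0 from day 2 to day 3, 0 from 8 h of RA to day 3 and 0 from day 3 to day 4, while 1, 7, 8, 5 and 5 of the 8 had an unadjusted p under 0.05 in these comparisons by limma. Of all 18193 genes, 0 were called in each of these fits. By limma 1138, 2563, 4608, 2859 and 3261 genes had an unadjusted p under 0.05, in the same order. Outside days 2 to 4 arrays share a number and no known pairing. Day 7 shares 1 number with day 4 and with day 0, so no fit of those stages alone was made with the block.

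With day 2 replicates 3 and 4 only, or 1 and 2 only, 0 receptors were called after 8 h of RA. Probe sets averaged per gene gave 3 from day 2 to day 3 and 3 from day 4 to day 7, 4 passes for Nr2f1 minus Nr2f2 and 0 for Esrrb minus Nr5a2 (1). From day 3 to day 4, values raised to background, an adjusted p of 0.05 and array weights each gave 2, with Nr2f2 added. Nr2f1 minus Nr2f2 passed in 0 comparisons with values raised to background, 2 with dim probe sets left out, 2 at an adjusted p of 0.05 and 3 with array weights.

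With 1 array left out, the count was 0 to 1 after 8 h of RA, 3 to 4 from day 0 to day 2, 5 to 5 from day 2 to day 3, 2 to 4 from 8 h of RA to day 3, 1 to 2 from day 3 to day 4, 3 to 5 from day 4 to day 7 and 6 to 6 from day 0 to day 7. It was 2 from 8 h of RA to day 3 without RA replicate 1 or 3, 2 from day 3 to day 4 without day 3 replicate 3 or day 4 replicate 1, and 3 from day 4 to day 7 without day 4 replicate 1 or day 7 replicate 3. A lone RA array was taken to have the spread of the other groups. The causes of these changes were not tested. Changes under a log2 signal of 4 are not resolved on these arrays.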
